A study of Rattus norvegicus with 17 samples.

Results

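The 5 circadian clock genes described here are Per1 (ENSRNOG00000007387), Per2 (ENSRNOG00000020254), Dbp (ENSRNOG00000021027), Nr1d1 (ENSRNOG00000009329) and Arntl (ENSRNOG00000014448). They were picked by name as parts of the molecular clock, with earlier results of these data known and with Per1 and Per2 named by the study, so their site differences are not independent of the choice. All 5 were among the 22664 genes tested of the 32494 listed. The study asked how far hippocampal profiles from different laboratories resemble each other. Wild-type, untreated male SAS Sprague Dawley rats were kept at Legacy Research (Site #1, n = 5), Trinity College (Site #2, n = 6) and UAB (Site #3, n = 6), and 1 RNA-Seq library was made from the whole hippocampus of each rat. The rats of Sites #1 and #2 came from Charles River at 8.3 weeks of age, were housed singly, and were killed from day 18 after arrival, with saline as the dissection buffer. Those of Site #3 came from Harlan (Envigo) at 8.0 weeks of age, were housed in pairs on another chow, and were killed on day 27, with bubbled artificial cerebrospinal fluid as the buffer. All rats had equal periods of light and dark, were handled daily and were decapitated without anesthesia. The hour of the day at which they were killed is not given in the sources used here. These factors cannot be told apart from the site.

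In the molecular clock, the protein of Arntl (also called Bmal1) pairs with CLOCK and switches on genes that carry an E-box in their promoters. Per1 and Per2 are such targets, and their proteins return to the nucleus and hold back the same activator. Nr1d1 (REV-ERB alpha) is another target and represses Arntl through ROR elements, while Dbp is an output factor that acts on genes with a D-box. In most tissues of a rat held on a light cycle, Arntl transcripts are therefore high at the hours at which those of Nr1d1 and Dbp are low. Per1 and Per2 also respond to neuronal activity and to glucocorticoids. Local clocks of this kind run in the hippocampus as well as in the master clock of the suprachiasmatic nucleus.

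The promoters in which a known clock element was found are shown here, because the elements are the letters through which the members are thought to act on each other. Sequences are from RefSeq on the GRCr8 build, 250 bases up to the start site, 5′ to 3′ on the strand of the gene, with the matched elements in capitals. Of the 5 genes, 5 had an entry, Arntl under the symbol Bmal1, and Nr1d1 had a pair of start sites. The window of Per2 (chr9:99496994-99497243, minus strand) held the D-box TTATGTAA at bases -192 to -185 and the E-box-like CACGTT at -62 to -57 from the start. The window of the first Nr1d1 start (chr10:84231813-84232062, minus strand) held CACGTT read on the opposite strand at -174 to -169. That of the second (chr10:84229455-84229704, minus strand) held the E-box CACGTG at -191 to -186, which reads the same on both strands. The window of Arntl (chr1:176766078-176766327, plus strand) held the ROR element core AGGTCA at -15 to -10.
Per2: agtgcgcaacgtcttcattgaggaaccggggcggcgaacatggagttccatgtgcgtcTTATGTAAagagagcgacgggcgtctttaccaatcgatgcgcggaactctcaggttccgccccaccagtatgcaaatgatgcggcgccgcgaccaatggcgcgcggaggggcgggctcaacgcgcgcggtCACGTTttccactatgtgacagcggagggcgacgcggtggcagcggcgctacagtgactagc
Nr1d1, first start: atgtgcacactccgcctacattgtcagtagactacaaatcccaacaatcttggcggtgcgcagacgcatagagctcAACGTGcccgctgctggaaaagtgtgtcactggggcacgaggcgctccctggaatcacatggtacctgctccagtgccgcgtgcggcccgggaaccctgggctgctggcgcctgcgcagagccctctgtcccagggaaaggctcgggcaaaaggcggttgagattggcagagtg
Nr1d1, second start: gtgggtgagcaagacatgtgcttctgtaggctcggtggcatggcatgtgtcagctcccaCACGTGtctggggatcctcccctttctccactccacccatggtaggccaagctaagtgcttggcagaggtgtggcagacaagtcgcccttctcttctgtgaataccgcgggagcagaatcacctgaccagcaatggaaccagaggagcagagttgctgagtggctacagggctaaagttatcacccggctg
Arntl: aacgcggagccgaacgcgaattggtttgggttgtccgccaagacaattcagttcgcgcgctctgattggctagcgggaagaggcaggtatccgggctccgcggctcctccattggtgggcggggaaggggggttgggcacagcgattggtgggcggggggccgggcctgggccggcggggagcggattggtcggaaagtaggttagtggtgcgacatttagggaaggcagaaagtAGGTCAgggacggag
Both strands were searched for 5 elements, the E-box CACGTG, the E-box-like CACGTT, the D-box TTATGTAA, the ROR element core AGGTCA and the cAMP element TGACGTCA, and no match overlapped another. None was found in the windows of Per1 (chr10:54304126-54304375) and Dbp (chr1:105312006-105312255), both on the plus strand. The search covered 300 bases, 250 before and 50 after the start, and every match lay in the 250 bases shown. Elements farther from the start, within the gene or at starts without an entry were not searched for. Of all 33469 windows of 300 bases in the table, 6.42% held CACGTG, 4.83% CACGTT, 0.893% TTATGTAA, 16.2% AGGTCA and 1.83% TGACGTCA. The match in Arntl is thus of a kind found in many promoters, and that of the D-box in Per2 in few.

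Expression is given as deposited, on a log2 scale already normalized between libraries, so that 1 unit is a doubling. The values resemble a regularized log, which pulls differences towards 0, and fold changes from them may be understated. The tissue is a mixture of cell types, and fewer cells of a type and less RNA per cell cannot be told apart. The values hold no read counts, so the depth behind each is unknown, and precision is set by how many rats there were. The rats of a site shared a vendor and a laboratory, and whether they were littermates is not stated. Medians over genes were 7.48 to 7.59 in the 17 libraries, and the correlation between any pair of libraries was 0.9989 to 0.9998. Replicate 1 of Site #3 stood apart in genes of the choroid plexus, with F5 at 12.04 against a site median of 5.49, and each difference between Site #3 and another site was also computed without it.

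Per1 and Per2, the repressors of the loop, had their highest site means at Site #3. Per1 was measured at 10.68, 10.69, 10.83, 10.85 and 10.91 in the 5 libraries of Site #1. At Site #2 it ran from 10.62 to 11.05 with a median of 10.86, and at Site #3 from 11.02 to 11.22 with a median of 11.08. Every library of Site #3 was above every library of Site #1, whereas Site #2 reached from below the lowest of Site #1 into the range of Site #3. From Site #1 to Site #3 the means were 10.79 ± 0.10 (SD, n = 5), 10.84 ± 0.17 (SD, n = 6) and 11.09 ± 0.07 (SD, n = 6).

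Against the mean of Sites #1 and #2, Per1 was higher at Site #3 by 0.28 log2 units (SE 0.06, 1.213-fold, adjusted p = 0.0349 by limma, with the Benjamini-Hochberg method applied to all 22664 genes). This was the single call of a member in the 4 comparisons, in a contrast in which 0.768% of genes were called and 0.402% were called as higher at Site #3. Site by site, the difference was 0.30 (SE 0.05) from Site #1 (adjusted p = 0.0682) and 0.26 (SE 0.07) from Site #2 (adjusted p = 0.0904), neither of which passed. From Site #1 to Site #2 it was 0.04 (SE 0.08, adjusted p = 0.908, 95% interval from -0.13 to 0.21). The call rested on most libraries: leaving out 1 library at a time gave differences of 0.2533 to 0.3001 and adjusted p of 0.0183 to 0.0888, and the call was lost in 11 of 17 cases. Those were replicates 1, 2 and 3 of Site #1, replicates 3 and 5 of Site #2, and each of the 6 libraries of Site #3, among them the one with choroid plexus genes (0.2931, adjusted p = 0.0536). For Site #1 vs Site #3 the call was gained without replicate 5 of Site #1 (adjusted p = 0.0358), with array weights (0.0339), among genes with a mean of at least 5 (0.0301) and after median centring (0.0472), and for Site #2 vs Site #3 with the same filter on the mean (0.0473).

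Per2 followed the same order of site means, with smaller differences. It was measured at 10.59, 10.64, 10.68, 10.73 and 10.74 at Site #1, between 10.57 and 10.94 (median 10.80) at Site #2, and between 10.85 and 11.13 (median 10.91) at Site #3. The libraries of Sites #1 and #3 did not overlap for this gene either, and those of Site #2 again reached into both. The means were 10.68 ± 0.06 (SD, n = 5), 10.77 ± 0.15 (SD, n = 6) and 10.94 ± 0.10 (SD, n = 6). No comparison of Per2 passed: the difference was 0.26 (SE 0.05, adjusted p = 0.124) between Sites #1 and #3, 0.17 (SE 0.07, adjusted p = 0.269) between Sites #2 and #3, and 0.22 (SE 0.05, adjusted p = 0.0759) between Site #3 and the mean of the others. The last passed without replicate 1 of Site #2 (adjusted p = 0.0442). Between Sites #1 and #2 it was 0.10 (SE 0.07, adjusted p = 0.819). Between Sites #1 and #3, 1.38% of all genes did not overlap and 0.587% did so with Site #3 higher, as did 2 of the 5 members. By p value before adjustment, Per1 ranked 25 and Per2 ranked 38 of the 22664 genes in this comparison. The study, with DESeq2 at an adjusted p under 0.05, counted both among the genes that differed between Sites #1 and #3. It worked from read counts, and for each pair of sites it called more genes than limma called here.

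**Figure D1:**
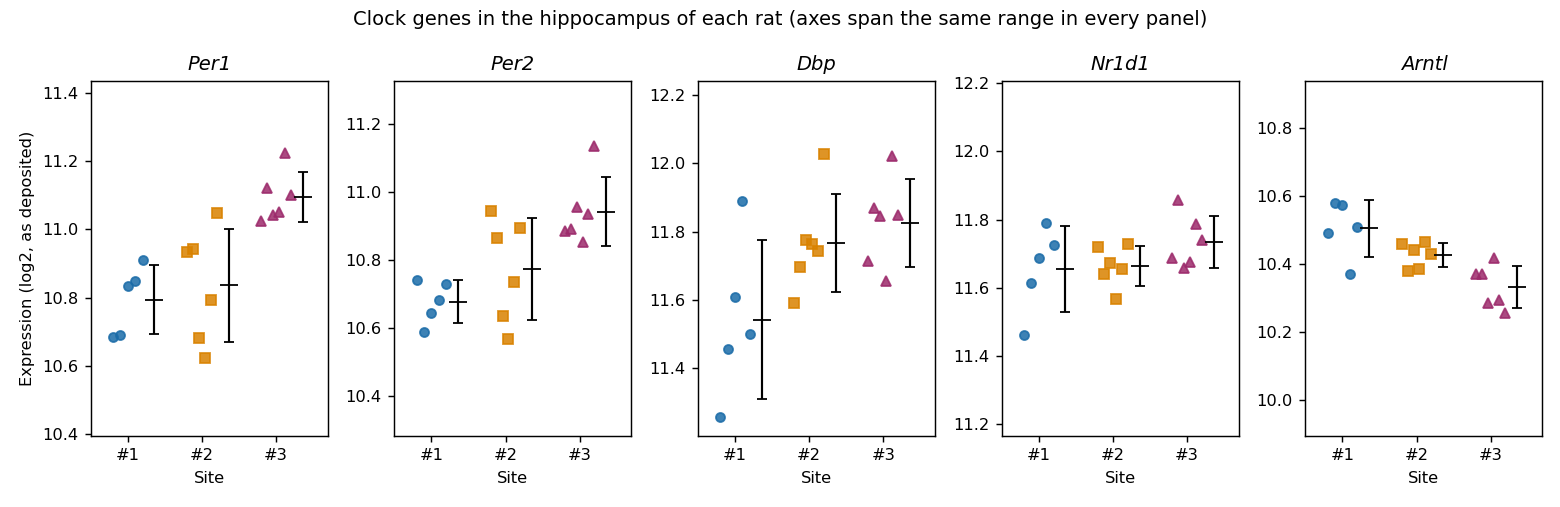
Expression (log2, as deposited) of Per1, Per2, Dbp, Nr1d1 and Arntl by site. Each symbol is 1 rat, horizontal bars and whiskers are the mean and SD of the site (n = 5, 6 and 6), and every panel spans an equally wide range. The symbols of Site #3 lie above those of Site #1 for Per1 (11.02 to 11.22 against 10.68 to 10.91) and Per2, and mostly below them for Arntl.

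Dbp, the PAR bZIP transcription factor that carries the rhythm to genes with a D-box, varied most among the rats of a site when averaged over the sites. At Site #1 it was measured at 11.26, 11.46, 11.50, 11.61 and 11.89, at Site #2 from 11.59 to 12.03 (median 11.75) and at Site #3 from 11.66 to 12.02 (median 11.85). Sites #2 and #3 covered nearly the same range, and 2 of the 5 libraries of Site #1 lay within that of Site #2. The means were 11.54 ± 0.23 (SD, n = 5), 11.77 ± 0.14 (SD, n = 6) and 11.83 ± 0.13 (SD, n = 6). The difference was 0.22 (SE 0.10, adjusted p = 0.744) from Site #1 to Site #2, 0.28 (SE 0.10, adjusted p = 0.444) from Site #1 to Site #3 and 0.06 (SE 0.07, adjusted p = 0.741) from Site #2 to Site #3. Between Site #3 and the mean of the others it was 0.17 (SE 0.08, adjusted p = 0.409).

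Nr1d1, the nuclear receptor that represses Arntl, had the smallest difference of the 5 between Site #3 and the mean of the others. It was measured at 11.46, 11.61, 11.69, 11.73 and 11.79 at Site #1, from 11.57 to 11.73 (median 11.66) at Site #2 and from 11.66 to 11.86 (median 11.71) at Site #3, and the ranges of all 3 sites overlapped. The means were 11.66 ± 0.13 (SD, n = 5), 11.66 ± 0.06 (SD, n = 6) and 11.73 ± 0.08 (SD, n = 6). The largest of its pairwise differences was 0.08 (SE 0.06, adjusted p = 0.802, 95% interval from -0.05 to 0.20), between Sites #1 and #3. From Site #2 to Site #3 it was 0.07 (SE 0.04, adjusted p = 0.444), and from the mean of Sites #1 and #2 to Site #3 it was 0.08 (SE 0.04, adjusted p = 0.541). Sites #1 and #2 differed by 0.01 (SE 0.05, adjusted p = 0.971), a value whose sign changed with the normalization.

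Arntl, the activator, was the one member whose site means ran the other way. It was measured at 10.37, 10.49, 10.51, 10.57 and 10.58 at Site #1, from 10.38 to 10.46 (median 10.43) at Site #2 and from 10.26 to 10.42 (median 10.33) at Site #3. Replicate 4 of Site #1, at 10.37, was the only library of its site within the range of Site #3. The means were 10.50 ± 0.08 (SD, n = 5), 10.43 ± 0.04 (SD, n = 6) and 10.33 ± 0.06 (SD, n = 6). Arntl at Site #3 differed from the mean of the others by -0.13 (SE 0.03, 0.912-fold, adjusted p = 0.0713), from Site #1 by -0.17 (SE 0.04, 0.888-fold, adjusted p = 0.26) and from Site #2 by -0.09 (SE 0.03, adjusted p = 0.193), and none of these passed. The first passed without replicate 4 of Site #1 (adjusted p = 0.0237) and with array weights (-0.1341, adjusted p = 0.0476). Sites #1 and #2 differed by -0.08 (SE 0.04, adjusted p = 0.752).

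Set side by side, the 5 genes gave 1 call, Per1, for Site #3 against the mean of the others, and 0 in each comparison of a pair of sites. The pairs have libraries in common, so they are not separate evidence. With a p under 0.05 before adjustment, 3 members (Per1, Per2 and Dbp) were higher and 1 (Arntl) lower at Site #3 than at Site #1, where 3.76% of all genes were higher and 4.41% lower with such a p. For Site #2 vs Site #3 it was 2 higher (Per1 and Per2) and 1 lower (Arntl), beside 7.24% and 7.55% of all genes, and for Site #3 against the mean of the others 3 higher (Per1, Per2 and Dbp) and 1 lower (Arntl), beside 6.08% and 5.94%. For Site #1 vs Site #2 it was 0 of 5, beside 6.74% of all genes in either direction. After adjustment, 0.101% of genes were called between Sites #1 and #3, 1.05% between Sites #2 and #3 and 0.0% between Sites #1 and #2, where limma called 0 genes and 1527 had a p under 0.05 before adjustment. The median difference of the 5 members, among them Arntl with its opposite sign, was 0.26 from Site #1 to Site #3, 0.07 from Site #2 to Site #3 and 0.04 from Site #1 to Site #2. The medians of all genes lay within 0.0002 of 0. In values normalized between libraries such medians lie near 0, and they do not show how far 5 genes may stray from it. On simulated libraries, a shift of 0.25 log2 units at Site #3 was recovered for 58% of 200 genes against Site #1 and for 60% against Site #2. A shift of this size can thus be missed with these numbers of rats. The shifted genes were drawn from all genes with a mean of at least 8. Per1 and Per2 varied more within sites than most genes of like level, so these shares may be too high for them. The adjusted threshold also grows less strict as more genes differ. With 200 shifted genes it was less strict than in the data of Sites #1 and #3, where 23 genes were called. The share of 58% may therefore be too high for any gene in that comparison. The shift was also larger than the difference of Per2 between Sites #2 and #3 (0.17).

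**Figure D2:**
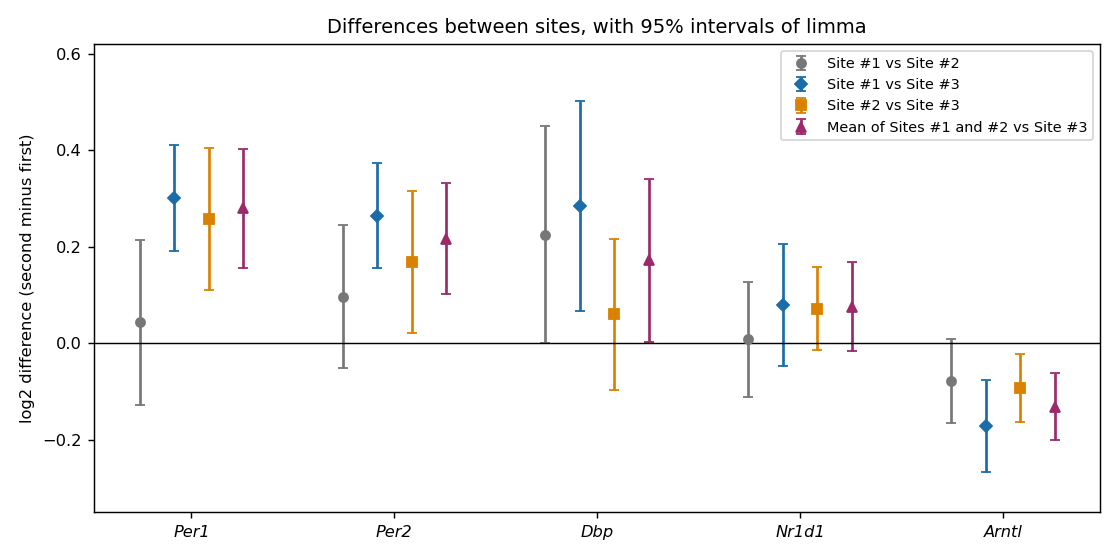
Difference in expression of each clock gene (log2, second site minus first) in the 4 comparisons, with 95% intervals of limma before adjustment over genes. Per1 at Site #3 against the mean of the others (0.28) is the only value that passed after adjustment, and the intervals of Nr1d1 cover 0 in every comparison.

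Without the library of Site #3 that held choroid plexus genes, the differences between Sites #1 and #3 were 0.3148 for Per1, 0.2755 for Per2, 0.3060 for Dbp, 0.0884 for Nr1d1 and -0.1794 for Arntl, each a little farther from 0 than with it. Between Sites #2 and #3 they were 0.2714, 0.1792, 0.0817, 0.0805 and -0.1011 in the same order. F5 itself had within-site r of -0.19 to 0.20 with the members. These values rest almost wholly on the same library, so they cannot show whether F5 and the members vary together between rats.

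Site means describe only part of the question whether Arntl runs against the other 4 genes, since sites differ in much else. Within sites, with each value taken as its distance from the mean of its own site, the Pearson r of Arntl was -0.51 with Dbp (permutation p = 0.089), -0.31 with Per2 (p = 0.162), -0.15 with Per1 (p = 0.54) and -0.13 with Nr1d1 (p = 0.699) over 17 libraries. All 4 were negative and none passed, with p adjusted over the 10 pairs of members of 0.178, 0.271, 0.675 and 0.776. Spearman's rho was -0.41, -0.50, -0.17 and -0.08 in the same order, of which that with Per2 had a permutation p of 0.0344 and an adjusted p of 0.086. About the site means, Arntl and Per2 lay on opposite sides in 12 of 17 libraries, Arntl and Dbp in 10, Arntl and Per1 in 9 and Arntl and Nr1d1 in 7.

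Without the 2 libraries in which Arntl, taken about the site means, was farthest from its median (replicate 4 of Site #1 and replicate 4 of Site #3), r was 0.0071 with Dbp, -0.32 with Per2, -0.03 with Per1 and 0.41 with Nr1d1. The negative r with Dbp and Nr1d1 thus rested on those libraries. In replicate 4 of Site #1, Arntl was the lowest of its site (10.37) while Dbp (11.89) and Nr1d1 (11.79) were the highest. With that library alone left out, r was -0.1879 with Dbp and 0.2264 with Nr1d1. Without replicate 6 of Site #3, in which Per2 was highest and Arntl lowest of the site, r of Arntl with Per2 was -0.1610.

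The sites did not behave alike in these pairs, although the difference between them was not tested. At Site #3 (n = 6), r of Arntl was -0.84 with Per2 (exact permutation p = 0.0153, adjusted p = 0.146), and the order of the 6 rats by Per2 was the exact reverse of that by Arntl (rho -1.0). There it was -0.68 with Dbp (exact permutation p = 0.144), -0.36 with Per1 (exact p = 0.504) and -0.04 with Nr1d1 (exact p = 0.963). At Site #2 (n = 6) it was 0.23 with Per2, -0.10 with Dbp, 0.11 with Per1 and 0.63 with Nr1d1, with exact permutation p of 0.61, 0.9, 0.806 and 0.175. No correlation was computed within Site #1, which had 5 libraries, 1 below the minimum set for a correlation.

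Pooled over the sites, without taking out the site means, Arntl ran against the others more strongly. The pooled r was -0.62 with Per1 (permutation p = 0.00798, adjusted p = 0.0133), -0.69 with Per2 (p = 0.00203, adjusted p = 0.0053), -0.69 with Dbp (p = 0.00212, adjusted p = 0.0053) and -0.37 with Nr1d1 (p = 0.144, adjusted p = 0.144). Pooled rho was -0.63, -0.61, -0.74 and -0.46. The pooled p values came from permuting all 17 libraries across the sites, as if the rats of a site were independent. They therefore also carry the differences between the 3 sites and are not evidence for a relation between rats. Within sites, the r of Arntl with Per1, Per2 and Dbp was negative as well but did not pass the adjusted threshold. Taking out the site means also takes out any shift shared by the rats of a site. The within-site values therefore cannot decide how Arntl relates to the other genes between sites.

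**Figure D3:**
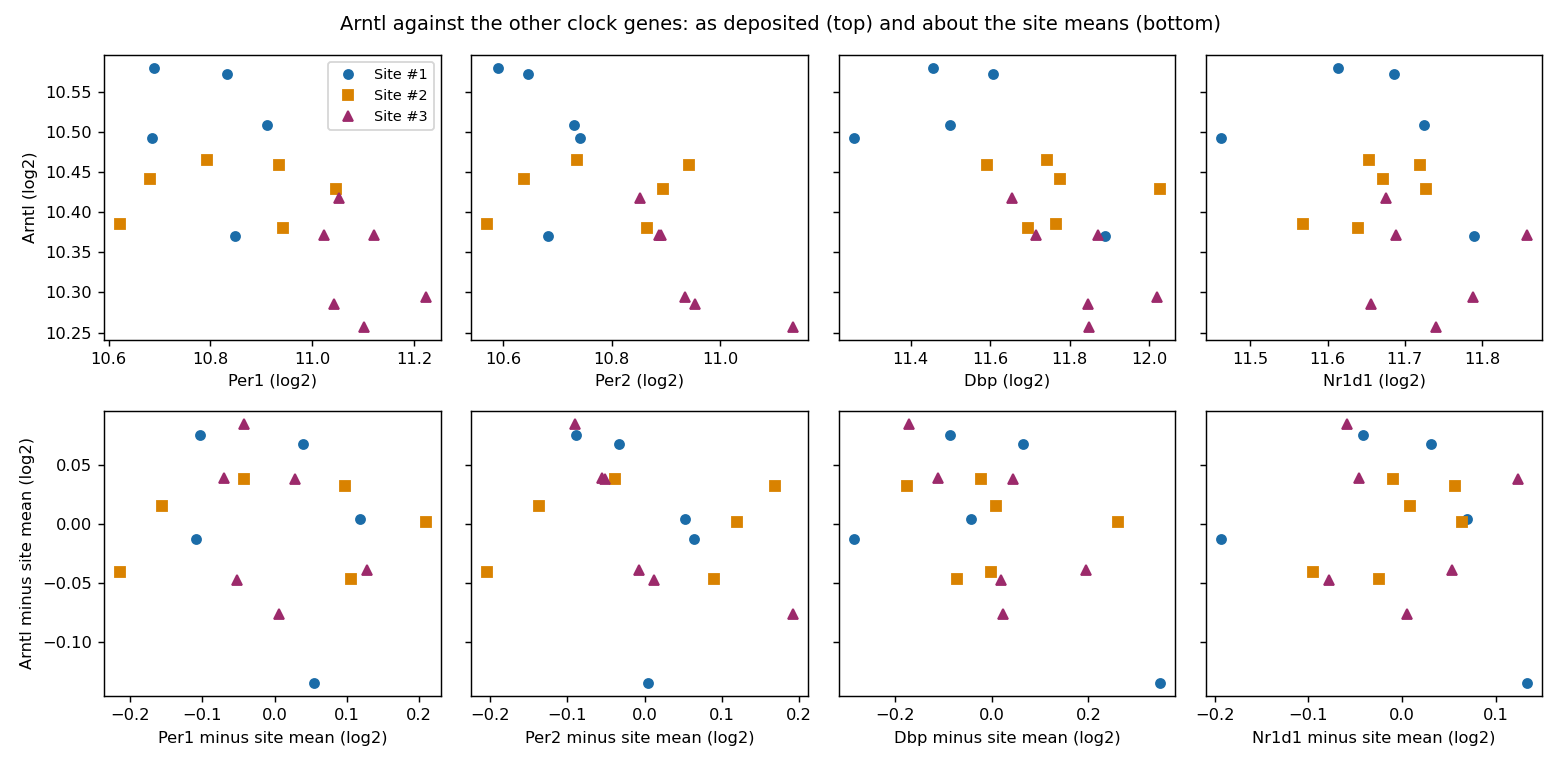
Expression of Arntl (vertical axes, log2) against Per1, Per2, Dbp and Nr1d1 (horizontal axes, log2) in 17 libraries, as deposited in the upper row and after subtraction of the site mean in the lower row. The upper row falls from Site #1 at the upper left to Site #3 at the lower right for Per1 and Per2 (pooled r -0.62 and -0.69), and the lower row is flatter (within-site r -0.15 and -0.31).

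Among the 4 members other than Arntl, the closest pairs were Per1 with Per2, Dbp with Nr1d1, and Per1 with Nr1d1. Per1 and Nr1d1 had a within-site r of 0.65 (permutation p = 0.00131, adjusted p = 0.0131; rho 0.71, adjusted p = 0.0191), the only pair past the threshold. Per1 and Per2 reached 0.68 (p = 0.0153, adjusted p = 0.051; rho 0.62) and Dbp and Nr1d1 0.68 (p = 0.0144, adjusted p = 0.051; rho 0.58). Per1 and Dbp were at 0.44 (adjusted p = 0.178), Per2 and Nr1d1 at 0.21 (adjusted p = 0.503) and Per2 and Dbp at 0.02 (adjusted p = 0.952). Whether Per1 and Per2 differ in their relation to Nr1d1 was not tested.

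Without the 2 libraries in which Per1, taken about the site means, was farthest from its median (replicates 4 and 6 of Site #2), r of Per1 was 0.61 with Nr1d1 (adjusted p = 0.141) and 0.53 with Per2 (adjusted p = 0.403). For Dbp, without replicates 1 and 4 of Site #1, it was 0.41 with Nr1d1 (adjusted p = 0.403). In replicate 1 of Site #1 both Dbp (11.26) and Nr1d1 (11.46) were the lowest of all 17 libraries. At Site #2 Per1 and Per2 had an r of 0.95 (exact permutation p = 0.0111, adjusted p = 0.111, n = 6), with replicates 3 and 4 low and 1, 2 and 6 high for both genes. At Site #3 the corresponding r was 0.16 (exact p = 0.731), and Per1 there ran with Dbp at 0.86 (exact permutation p = 0.0292, adjusted p = 0.146, n = 6). Pooled over the sites, with permutation across them, r was 0.84 for Per1 and Per2 (adjusted p = 0.0004), 0.69 for Per1 and Nr1d1 (adjusted p = 0.0053) and 0.67 for Dbp and Nr1d1 (adjusted p = 0.00746). These p values also carry the site differences.

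**Figure D4:**
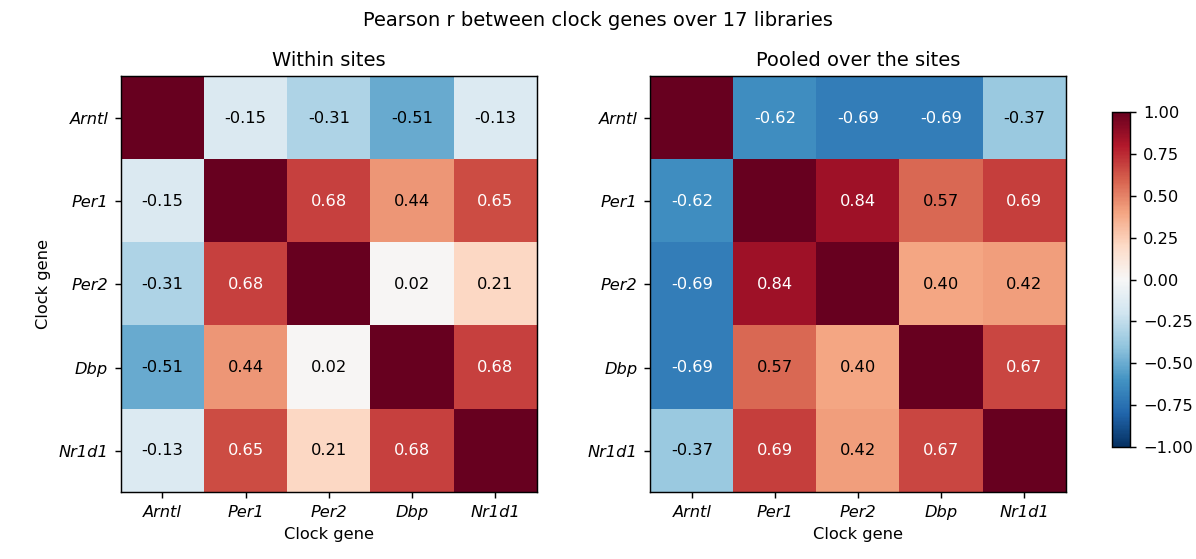
Pearson r of each pair of clock genes over 17 libraries, within sites (left) and pooled over the sites (right), on a colour scale from -1 to 1. The row of Arntl holds negative values in both panels, nearer to 0 within sites (-0.13 to -0.51) than pooled (-0.37 to -0.69).

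These values were set beside those of the other 10693 genes with a mean of at least 8, as a description. By within-site r with Per1, 0.449% of genes were at or above Per2 and 0.748% at or above Nr1d1, while on the lists of Per2 and Nr1d1 the share at or above Per1 was 2.03% and 2.1%. With Nr1d1, 1.59% were at or above Dbp, and with Dbp 2.64% were at or above Nr1d1. On the list of Arntl, 2.13% of genes were at or below Dbp, against 9.45% at or below Arntl on the list of Dbp. With Arntl, 12.9% of genes were at or below Per2, 29.5% at or below Per1 and 30.9% at or below Nr1d1. An r of 0.5 or more was found for 4.98% of genes with Per1, 8.78% with Per2, 9.92% with Dbp and 7.45% with Nr1d1, and for 1.4% with Arntl. An r of -0.5 or less was found for 2.35% of genes with Arntl, against 10.2% with Per1, 9.7% with Per2, 9.9% with Dbp and 13.2% with Nr1d1.

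The genes whose pattern was nearest to each member, among those that could be given a symbol and leaving out the members, are given by within-site r over 17 libraries. Symbols other than those of the members came from the study's marker list and lists of differentially methylated genes. With the members, 1441 of the 22664 tested genes had a symbol. Other genes often lay nearer: Map3k9 ranked 50 from the top and Dars 41 from the bottom with Per1. Pdhx ranked 71 from the bottom with Per1 and 77 with Per2, and Tdrd7 43 from the top with Arntl. Highest with Per1 were Frmd5 (0.72), Disp3 (0.69) and the kinase Map3k9 (0.68), and lowest were Dars, the cytoplasmic aspartyl-tRNA synthetase (-0.82), Ywhag (-0.81) and Pdhx, a subunit of the pyruvate dehydrogenase complex (-0.79). Highest with Per2 were the splicing factor Srrm2 (0.84), the kinase Taok3 (0.82) and Sec16a (0.80), and lowest were the nucleolar protein Npm1 (-0.80), the SUMO-activating enzyme subunit Sae1 (-0.78) and again Pdhx (-0.74). Highest with Dbp were Nsmce1 (0.85), Anapc5, a subunit of the anaphase-promoting complex (0.83), and the deacetylase Hdac11 (0.83), and lowest were Etnk1 (-0.87), the receptor Mas1 (-0.85) and the potassium channel Kcnq5 (-0.82). The name Pdhx was the only one shared between these lists.

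The lowest with Nr1d1 were the co-chaperone Dnaja4 (-0.92), the sodium pump subunit Atp1b1 (-0.92) and the neuronal transcription factor Neurod6 (-0.91), which ranked 1, 2 and 4 from the bottom of all genes, and the highest were Tnfsf12 (0.88), Pik3cd (0.84) and Efnb2 (0.81). With Arntl, the lysosomal carboxypeptidase Scpep1 (0.74), Srd5a3 (0.72) and Tdrd7 (0.58) stood at the top and the phosphatase Dusp5 (-0.74), Gli4 (-0.66) and the co-chaperone Bag3 (-0.66) at the bottom.

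The members also differed in how much they varied between rats of a site. The SD within sites of Dbp was 0.170, larger than that of 94.9% of genes of like level (median 0.0783). Per1 had an SD of 0.121 (larger than 80.1%), Per2 of 0.113 (76.0%) and Nr1d1 of 0.0886 (61.6%), and that of Arntl, 0.0624, was larger than that of only 19.6% (median 0.0834). Arntl had the smallest SD of the 5 when pooled over the sites, although at Site #1 that of Per2 (0.06) was below that of Arntl (0.08). Of the total variance of Arntl, 59.9% lay between the sites, a share larger than in 98.1% of genes of like level. The share was 59.7% for Per1 (larger than in 97.9%), 52.6% for Per2 (95.2%), 37.2% for Dbp (81.8%) and 16.6% for Nr1d1 (48.4%), against a median of 17.2% for genes at the level of Nr1d1. These shares rest on the same site differences as the tests above.

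Of 22 other clock genes on a list of CRY, ROR, PAR bZIP and related factors, 1 could be matched to an identifier: Hlf, a PAR bZIP relative of Dbp. From Site #1 to Site #3, Hlf was at 9.55 ± 0.22 (SD, n = 5), 9.44 ± 0.20 (SD, n = 6) and 9.59 ± 0.11 (SD, n = 6), with overlapping ranges. It was not called in any of the 4 comparisons (adjusted p from 0.476 to 0.921). Its within-site r was 0.50 with Dbp, 0.49 with Per1, 0.34 with Nr1d1, 0.32 with Per2 and -0.02 with Arntl.

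Of 8 glucocorticoid-responsive genes 2 could be matched, and of 13 immediate-early genes 1. The kinase Sgk1 was at 11.58 ± 0.15 (SD, n = 5), 11.78 ± 0.18 (SD, n = 6) and 11.73 ± 0.22 (SD, n = 6), and Errfi1, a feedback inhibitor of the EGF receptor, at 10.82 ± 0.10, 10.89 ± 0.07 and 10.97 ± 0.10. Dusp1, a MAP kinase phosphatase induced by activity, was at 9.10 ± 0.13, 9.15 ± 0.17 and 9.19 ± 0.16. None of the 3 was called in any comparison, with a smallest adjusted p of 0.261. Before adjustment, Errfi1 had a p of 0.02 for a difference of 0.15 (SE 0.06) between Sites #1 and #3 by limma and of 0.0163 for 0.12 (SE 0.04) between Site #3 and the mean of the others, higher at Site #3 in both, and its part in the values of Per1 and Per2 was not tested. The within-site r of Dusp1 was 0.75 with Nr1d1, 0.57 with Per1 and 0.56 with Dbp, against 0.10 with Per2 and 0.05 with Arntl. That of Sgk1 was -0.26 with Nr1d1, 0.19 with Per1, -0.08 with Dbp, 0.20 with Per2 and 0.03 with Arntl. For Errfi1 it was -0.31, 0.03, -0.29, 0.06 and -0.03 in the same order.

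Markers of cell types were checked beside the members because the hippocampus was taken whole. The list of 20 held 16 markers of cell types and 4 widely expressed genes. Of the 20 markers 20 were measured, none was at 0, and limma called 0 in each comparison, with a smallest adjusted p of 0.055. With a p under 0.05 before adjustment, 0 were higher and 5 lower at Site #2 than at Site #1 (25% of the list, beside 6.74% of all genes), and 3 were higher and 2 lower at Site #3 than at Site #1 (25%, beside 8.17%). At Site #3, 4 were higher and 1 lower than at Site #2 (25%, beside 14.8%), and 3 were higher and 3 lower than the mean of the others (30%, beside 12%). The microglial genes Csf1r (0.20, SE 0.04, adjusted p = 0.055) and C1qa (0.27, SE 0.06, adjusted p = 0.0618, no overlap) were nearest to a call, with higher means at Site #3 than at Site #2. Between these sites, 1.95% of all genes did not overlap. From Site #1 to Site #2, Csf1r differed by -0.15 (SE 0.06) and C1qa by -0.16 (SE 0.08). From Site #1 to Site #3 they differed by 0.05 (SE 0.05) and 0.12 (SE 0.05). The summed level of the 6 microglial markers was 12.83 to 13.10 at Site #1, 12.71 to 13.03 at Site #2 and 13.01 to 13.14 at Site #3 (log2 of the sum). That of the 5 listed for astrocytes was 16.48 to 16.65, 16.37 to 16.56 and 16.48 to 16.69, and that of the 4 for neurons 16.11 to 16.22, 16.03 to 16.12 and 16.01 to 16.11. The ranges of Sites #1 and #3 overlapped for the first of these lists and the second, and met at 16.11 for neurons, and the microglial ranges of Sites #2 and #3 shared only 13.01 to 13.03. These sums follow the most highly expressed genes of a list, among the microglial markers Csf1r and C1qa. From Site #2 to Site #3, Tmem119 differed by 0.22, Selplg by 0.16, Pycard by 0.07 and P2ry13 by -0.006. Their p before adjustment by limma was 0.15, 0.0648, 0.211 and 0.931 in this order. Aldh1l1, the astrocyte marker at the lowest level, differed from Site #1 by -0.19 (SE 0.05) at Site #2 and -0.18 (SE 0.05) at Site #3. Gja1 differed by 0.07 and 0.17. Of the 20 genes, the within-site r farthest from 0 was that with the widely expressed Actr3 for Nr1d1 (-0.79) and Per1 (-0.65), with the widely expressed Rac1 for Per2 (-0.69), with the NMDA receptor subunit Grin1 for Dbp (-0.66) and with the astrocyte connexin Gja1 for Arntl (-0.49). Their part in the values of the clock genes was not tested. Of 4 meningeal genes Col1a1 was matched, which ran from 8.53 to 10.95 over all libraries and had an r of -0.16 to 0.26 with the members, and of 5 choroid plexus genes F5 and Aqp1. Neither of the 2 blood genes could be matched.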

How the data were processed

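RNA-Seq libraries of 17 rats were used, grouped by the site in the sample labels. The authors used Trimmomatic for cleaning, HISAT2 for alignment to rn6, featureCounts for counting and DESeq2 for their tests; versions are not given in the sources used here. The library kit differs between the labels and the methods. The authors deposited log2 values, 1 per Ensembl gene and library, from -2.28 to 20.22, with no counts, so depth is unknown. The normalization is not named. The tests had been planned for counts as well as log2 values; the values proved to be log2 and were used without a pseudocount.

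Genes at 0 in all libraries (9830 of 32494) were left out. Each pair of sites was fitted alone with limma (lmFit and two-sided eBayes, trend on); Site #3 was set against the average of Sites #1 and #2 in a fit of all 17. P values were adjusted by Benjamini-Hochberg over 22664 genes, at a threshold of 0.05. Correlations used two-sided permutation within sites (100000 resamples) or, within 1 site, all 720 orders, adjusted over 10 pairs. Pooled correlations used as many resamples with all 17 libraries permuted across the sites. Genes of like level had a mean within 0.5 log2 units. The sites share replicate numbers in the labels, but the same number marks different rats, so no block was used.

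The members and lists were chosen with earlier results of these data known. Named genes were the members, clock genes with an identifier, and for each member the 3 highest and 3 lowest by within-site r among genes with a mean of at least 8 and a symbol. The pairs of symbol and identifier of the 5 members came with their selection and are not in the tables used here, which pair 1798 others. Alternatives were array weights, one fit of all libraries, no trend, robust estimation, a filter on the mean, quantile normalization, median centring, a replicate block and leaving out each library. The limma script was tested on simulated data of 22664 genes with 200 shifted; at a shift of 0.5 log2 units 96.5% were recovered against Site #1 and 98.5% against Site #2, with 11 false calls in each. Software was Python 3.11.15 (matplotlib 3.10.9, scipy 1.17.1, pandas 2.3.3, numpy 2.4.6) and R 4.3.3 (limma 3.58.1).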

Additional observations from a re-analysis of the deposited data

Results flagged for a closer look

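Per2 in replicate 6 of Site #3 was 11.13, while the other 5 libraries of that site lay between 10.85 and 10.95. Its gap to the next library, as a share of the range of the site, was above Dixon's 95% critical value for 6 samples. Of the 15 groups examined (5 genes at 3 sites) this was the 1 with such a value, and chance gives about 1 in 20. Arntl was the lowest of the site in the same library, at 10.26.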

How the results depend on the processing

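Of the 31 counts of called genes under other settings, 25 lay within 1.5 times the reported count. With the replicate block the counts were 0 (Site #1 vs Site #3), 43 (Site #2 vs Site #3) and 62 (Site #3 vs the mean), against 23, 239 and 174. A single fit of all libraries gave 36 for Site #1 vs Site #3, the filter on a mean of at least 5 gave 485 for Site #2 vs Site #3, and array weights gave 339 for Site #3 vs the mean. Median centring moved the split of Site #2 vs Site #3 from 120 higher and 119 lower to 73 and 160, and that of Site #3 vs the mean from 91 and 83 to 63 and 83. Leaving out 1 library gave 0 to 1, 9 (without replicate 3 of Site #3) to 30, 81 (without replicate 6 of Site #3) to 333 and 78 (without replicate 6 of Site #3) to 224 calls in the 4 comparisons.

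The same replicate numbers are different rats, and same-numbered libraries did not deviate together (mean correlation of deviations -0.005 for Sites #1 and #2, -0.166 for Sites #1 and #3 and 0.028 for Sites #2 and #3). With the replicate block Per1 at Site #3 vs the mean was 0.2683 (adjusted p = 0.101) and Nr1d1 from Site #1 to Site #2 was -0.0049, which was -0.0010 with quantile normalization.

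Per1 between Sites #1 and #3 passed with array weights (0.3140), a mean of at least 5 (0.3008) and median centring (0.2955), Per1 between Sites #2 and #3 with a mean of at least 5 (0.2574), and Arntl at Site #3 vs the mean with array weights (-0.1341). Of 155 values of the members under other settings 147 kept their direction and their side of the threshold, and of 255 with a library left out 237. Without 1 library, Per1 at Site #3 vs the mean ran from 0.2533 to 0.3001, Per1 from Site #1 to Site #3 from 0.2736 to 0.3303, Per2 at Site #3 vs the mean from 0.1778 to 0.2343, Arntl at Site #3 vs the mean from -0.1494 to -0.1174, and Nr1d1 from Site #1 to Site #2 from -0.0404 to 0.0414.

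For the correlations, the pooled r of -0.62 (Arntl and Per1), -0.69 (Arntl and Per2, Arntl and Dbp), 0.84 (Per1 and Per2), 0.57 (Per1 and Dbp) and 0.67 (Dbp and Nr1d1) passed where the within-site r did not. The pooled p values came from permutation across the sites and carry the site differences. Quantile normalization gave 0.67 for Per1 and Per2 (adjusted p = 0.0456) and 0.72 for Dbp and Nr1d1 (adjusted p = 0.0381). Without the 2 farthest libraries r was 0.0071 for Arntl and Dbp, 0.4066 for Arntl and Nr1d1, -0.0085 for Per2 and Dbp (-0.0083 with median centring) and 0.61 for Per1 and Nr1d1. Without 1 library, r ran from -0.2313 to 0.2264 for Arntl and Nr1d1, -0.6228 to -0.1879 for Arntl and Dbp, -0.4890 to -0.1610 for Arntl and Per2, 0.5641 to 0.7785 for Per1 and Per2, 0.5378 to 0.7864 for Dbp and Nr1d1 and -0.1459 to 0.1726 for Per2 and Dbp. Per1 and Nr1d1 kept an adjusted p of 0.0063 to 0.046 in each case. The cause of these changes was not tested. With no counts, the number of rats limits what can be detected.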
